A study of Saccharomyces cerevisiae with 12 samples.

Results

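The comparison described here set *sis2*Δ cells grown in regular potassium directly against WT cells grown in low potassium, and asked in which genes the deletion state and the low-potassium state of WT matched and in which they differed. It used every gene of the RNAseq table in 6 of the 12 libraries of the study, chosen by their labels. The first group was *S. cerevisiae* MATa cells carrying *sis2*Δ (sis2d0::kanMX) in 7.35 mM KCl, with 3 biological replicates. The second group was the MATa WT strain in 0.5 mM KCl, with 3 biological replicates. All cultures were first grown to saturation in standard medium and then moved to buffered synthetic medium of the stated concentration, in which they grew for 24 h at low density. The other 6 libraries, WT in 7.35 mM and *sis2*Δ in 0.5 mM KCl, entered the same fit and are given as reference levels. The groups compared differed in strain and in potassium, so the contributions of the deletion and of the medium cannot be told apart within this contrast. Each genotype was represented by 1 strain, and p-values measure the spread between cultures of that strain. Values are relative abundances, so more of a transcript and less of the remaining RNA cannot be told apart.

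Sis2, also called Hal3, is an inhibitory subunit of the protein phosphatase Ppz1, and in complex with other proteins it takes part in coenzyme A synthesis. Ppz1 and its relative Ppz2 restrain potassium uptake through Trk1 and Trk2, the main potassium importers of the plasma membrane, whereas the kinases Sat4 (Hal4) and Hal5 promote it. Potassium uptake is coupled to proton export by the plasma membrane H+-ATPase Pma1, and through the membrane potential to the uptake of many nutrients.

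The library totals were between 35451323 and 46543107 counts, and the biological coefficient of variation was 5.70%. *SIS2* (YKR072C, chrXI:576435-578123) was at 1.27, 1.11 and 1.33 CPM (counts scaled to a common, normalized library size) in the *sis2*Δ 7.35 mM libraries and at 92.5, 83.0 and 82.9 CPM in the WT 0.5 mM libraries, which fits the labels. *STE2*, the alpha-factor receptor gene of MATa cells, was at 694 to 738 CPM in *sis2*Δ 7.35 mM and at 685 to 800 CPM in WT 0.5 mM. Of 7 MATa markers, 3 were lower in *sis2*Δ 7.35 mM, among them the a-factor genes *MFA1* (-1.16) and *MFA2* (-0.42), and 3 were within ±0.3 log2, with sums of 2167 to 2305 against 2453 to 3020 CPM. All 5 MATalpha markers were lower, with sums of 73.7 to 75.5 against 96.1 to 98.2 CPM, a count of 3 without WT 0.5 mM replicate 1, WT 0.5 mM replicate 2 or *sis2*Δ 7.35 mM replicate 1. The alpha-factor gene *MF(ALPHA)1*, a defining one, was at 0.333 to 0.635 against 2.43 to 2.93 CPM. Among all genes tested, 22.1% were lower and 47.1% were within ±0.3 log2. The part of the mating-type markers in the results was not tested. Structural RNA genes summed to between 333 and 362 CPM in *sis2*Δ 7.35 mM and between 375 and 403 CPM in WT 0.5 mM after poly(A) selection, and the part of this difference in the results was not tested.

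Of 6691 genes tested, 2746 (41%) differed between the groups at an adjusted p under 0.05 by the quasi-likelihood test of edgeR, adjusted by the Benjamini-Hochberg method. Of these, 1264 (18.9% of all genes) were higher in *sis2*Δ 7.35 mM and 1482 (22.1%) were lower. The differences of over 1 on the log2 scale were mostly in 1 direction, with 9 genes higher and 173 lower in *sis2*Δ 7.35 mM. To ask where the states matched, a pair of one-sided tests asked whether the log2 difference lay inside ±0.3, a 1.23-fold change. By this test 3150 genes (47.1%) were within the margin, of which 179 also differed by the first test, and 974 genes passed neither test. With a margin of 0.2 no gene passed. In 3474 genes (51.9%) the values of the groups did not overlap. Over all genes the median log2 difference was 0.00047 and the median absolute difference was 0.15, with a median standard error (SE) of 0.069.

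**Figure D1:**
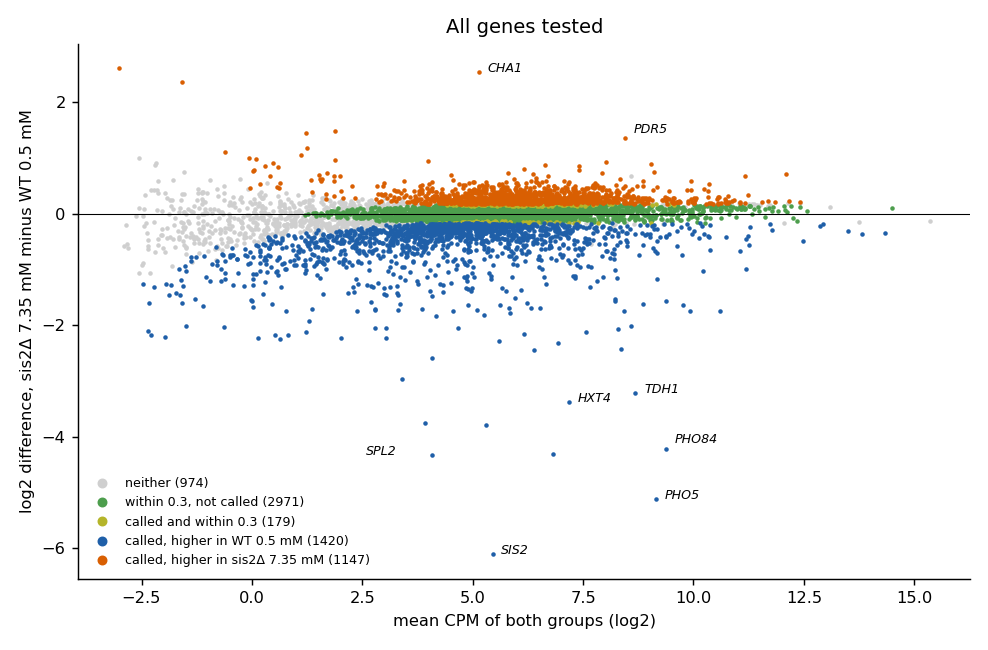
Log2 difference of each gene tested, *sis2*Δ 7.35 mM minus WT 0.5 mM KCl, against the log2 of its mean CPM over both groups, with colors for the test passed. Genes far from 0 lie mostly below it, with *SIS2* and *PHO5* lowest, while *CHA1* and *PDR5* lie above.

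Measured over all genes, the *sis2*Δ 7.35 mM libraries lay nearer to WT in the same medium than to WT in low potassium. The root mean square difference in log2 CPM was 0.391 between *sis2*Δ 7.35 mM and WT 0.5 mM, 0.235 between *sis2*Δ 7.35 mM and WT 7.35 mM, and 0.452 between WT 0.5 mM and WT 7.35 mM. The within-group SD was between 0.123 and 0.131. WT in 0.5 mM lay nearest to *sis2*Δ in 0.5 mM, at 0.168. These distances share libraries and are given as a description.

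After *SIS2* itself, the genes furthest apart belonged to the phosphate response. In this pathway the transcription factor Pho4 activates phosphate transporters and secreted acid phosphatases when phosphate is scarce, and Pho4 recognizes the letters CACGTG. Sites upstream of 3 of these genes, a phosphatase, a regulator and a transporter with large differences, are shown. For *SPL2* the part shown holds 2 of 4 sites. The windows are 120 bases from the R64 genome of RefSeq, printed 5′ to 3′ on the strand of the gene, with CACGTG in capitals.
PHO5 (chrII:431142-431261, minus strand): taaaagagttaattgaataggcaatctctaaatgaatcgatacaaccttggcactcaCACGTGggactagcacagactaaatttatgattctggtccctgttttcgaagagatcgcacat
SPL2 (chrVIII:375157-375276, minus strand): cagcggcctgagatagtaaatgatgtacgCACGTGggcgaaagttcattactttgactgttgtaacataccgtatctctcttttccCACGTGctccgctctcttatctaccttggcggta
PHO84 (chrXIII:26163-26282, minus strand): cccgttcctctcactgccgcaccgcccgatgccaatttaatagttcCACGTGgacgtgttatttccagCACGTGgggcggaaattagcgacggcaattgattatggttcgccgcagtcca
Searched on both strands of the 600 bases before each start codon, CACGTG was present at 18 of 22 phosphate genes (81.8%) and at 7.22% of the 5885 windows of tested genes. The same letters are bound by Cbf1, a regulator of sulfur genes, and a match describes the sequence only.

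*PHO5* (YBR093C, chrII:429548-430951), the main secreted acid phosphatase, was at 31.3, 32.6 and 31.1 CPM in *sis2*Δ 7.35 mM and at 1159, 970.3 and 1173 CPM in WT 0.5 mM. The groups were far apart, with a log2 difference of -5.12 ± 0.097 (SE, n = 3 per group, adjusted p = 7.03e-19 in edgeR). *PHO84* (YML123C, chrXIII:24037-25800), the high-affinity phosphate transporter, was at 72.6, 72.3 and 58.6 CPM against 1423, 1176 and 1198 CPM, a difference of -4.22 ± 0.090 (SE, adjusted p = 3.23e-18 in edgeR). Every *sis2*Δ 7.35 mM value of both genes was below every WT 0.5 mM value. The ranking by which both genes were named took only genes whose groups did not overlap. *SPL2* (YHR136C, chrVIII:374654-375100), a regulator of low-affinity phosphate transport, was at 1.63, 1.52 and 1.63 CPM against 31.9, 29.7 and 35.02 CPM. Its log2 difference was -4.33 ± 0.17 (SE, adjusted p = 5.58e-16 in edgeR). In WT 7.35 mM, *PHO5* was at 26.4 to 27.0, *PHO84* at 26.2 to 32.8 and *SPL2* at 0.548 to 1.14 CPM. In *sis2*Δ 0.5 mM, *PHO5* was at 1819 to 2583, *PHO84* at 2104 to 2266 and *SPL2* at 54.1 to 72.4 CPM, so both groups in low potassium stood above both groups in regular potassium. Against WT 7.35 mM as a shared reference, *PHO84* differed by 1.21 in *sis2*Δ 7.35 mM (adjusted p = 2.05e-08 in edgeR) and by 5.43 in WT 0.5 mM (adjusted p = 2.07e-19 in edgeR).

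Of the 22 phosphate genes, 18 were lower in *sis2*Δ 7.35 mM, 3 were higher and 1 was within the margin, with a median log2 difference of -1.23. The shares of all genes were 22.1% lower, 18.9% higher and 47.1% within the margin. Among the phosphatases, *PHO12* (-4.31) and *PHO11* (-3.78) were lower, as was the vacuolar phosphatase *PHO8* (-1.11). *PHO11* and *PHO12* are near-identical copies, and how reads were divided between them is uncertain. Among the transporters, the sodium-coupled *PHO89* differed by -2.96 on the log2 scale, whereas the low-affinity *PHO90* was higher by 0.43 and the vacuolar *PHO91* (-0.02) was within the margin. Genes of the VTC complex, which makes polyphosphate, were lower, including *VTC3* (-2.11), *VTC1* (-1.54) and *VTC4* (-1.32). *PHO81*, an inhibitor of the kinase that restrains Pho4, differed by -1.14, and *PHO4* itself, which was not among the 22, was within the margin at 0.06.

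**Figure D2:**
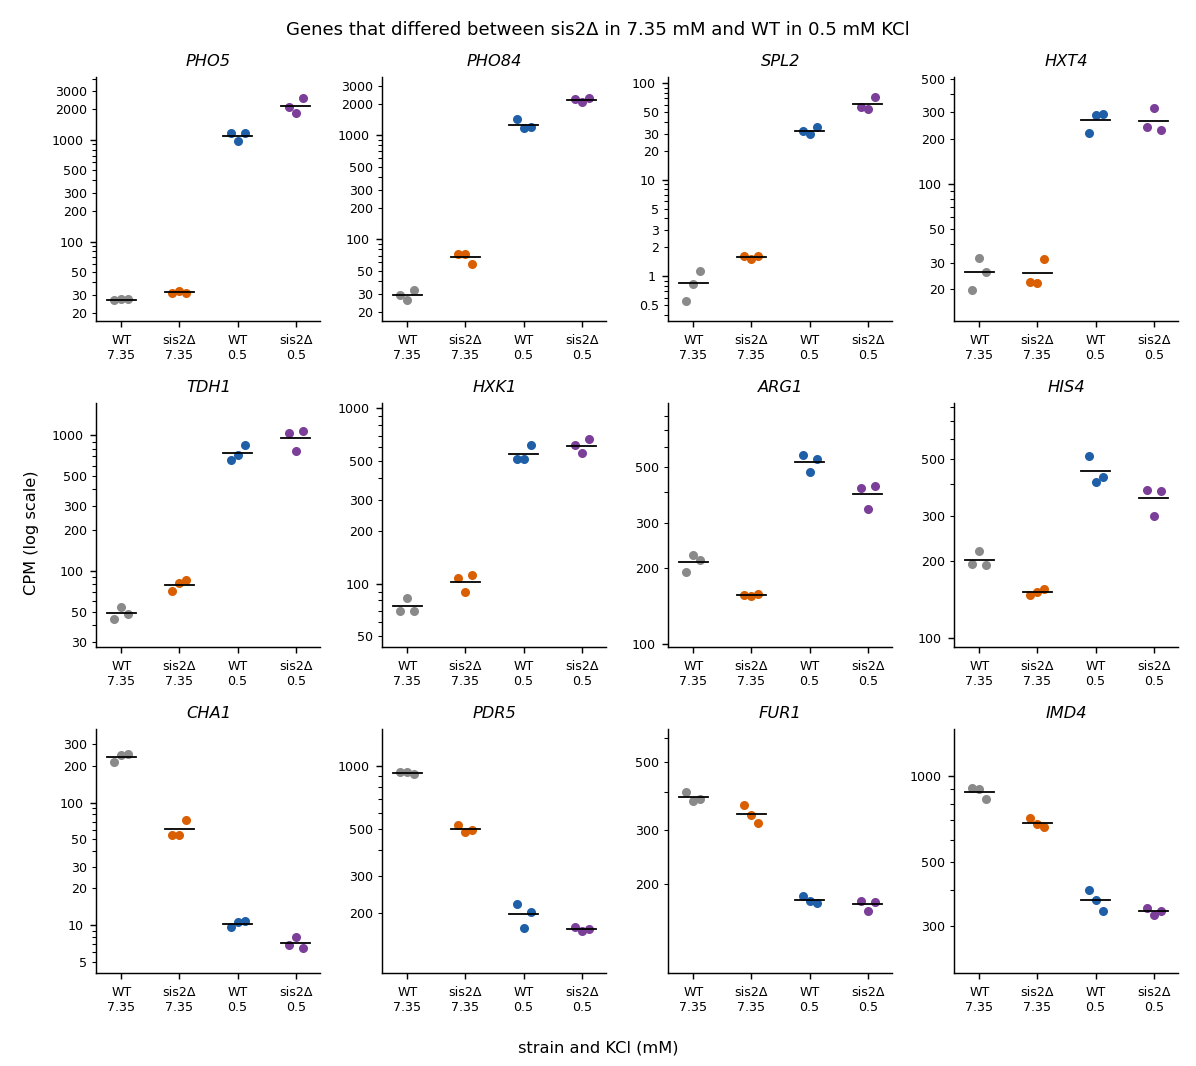
CPM on a log scale in each library of the 4 groups for 12 genes that differed between *sis2*Δ 7.35 mM and WT 0.5 mM KCl. Points are libraries and bars are group means. In the phosphate, sugar and amino acid biosynthesis genes WT 0.5 mM lies above *sis2*Δ 7.35 mM, and in *CHA1*, *PDR5*, *FUR1* and *IMD4* it lies below.

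Genes of the electron transport chain (ETC) were lower in *sis2*Δ 7.35 mM than in WT 0.5 mM. Of 28 respiratory chain genes, 27 were lower, none was higher and 1 was within the margin, beside 22.1%, 18.9% and 47.1% of all genes. The median log2 difference of the 28 genes was -0.56. Relative to WT 7.35 mM, the median over these genes was 0.29 in *sis2*Δ 7.35 mM and 0.88 in WT 0.5 mM, values that share the WT 7.35 mM libraries. *SDH2*, the iron-sulfur subunit of succinate dehydrogenase, was at 73.1, 59.6 and 68.2 CPM against 115.5, 121.1 and 122.7 CPM, a difference of -0.84 ± 0.067 (SE, n = 3 per group, adjusted p = 2.58e-09 in edgeR). *NDI1*, the internal NADH dehydrogenase, was at 56.8, 46.2 and 53.4 CPM against 89.1, 94.7 and 99.2 CPM, and differed by -0.85. The groups did not overlap in either gene. *COX4*, a subunit of cytochrome c oxidase, was at 112.2, 101.6 and 109.8 CPM against 139.9, 168.1 and 162.5 CPM (-0.54 ± 0.068 SE, adjusted p = 2.27e-06 in edgeR), and was at 71.8 to 75.8 CPM in WT 7.35 mM. In *COX4* the *sis2*Δ 7.35 mM group therefore lay between the WT groups. The lowest value of the list, -2.24 for the oxidase subunit *COX26*, rested on low levels, at 0.212 to 0.527 CPM against 1.09 to 2.51 CPM. The exception was *NDE1*, an external NADH dehydrogenase, at 304, 238 and 236 CPM against 266, 252 and 249 CPM, with overlapping groups and a difference of 0.02. Its place within the margin was lost without *sis2*Δ 7.35 mM replicate 3.

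**Figure D3:**
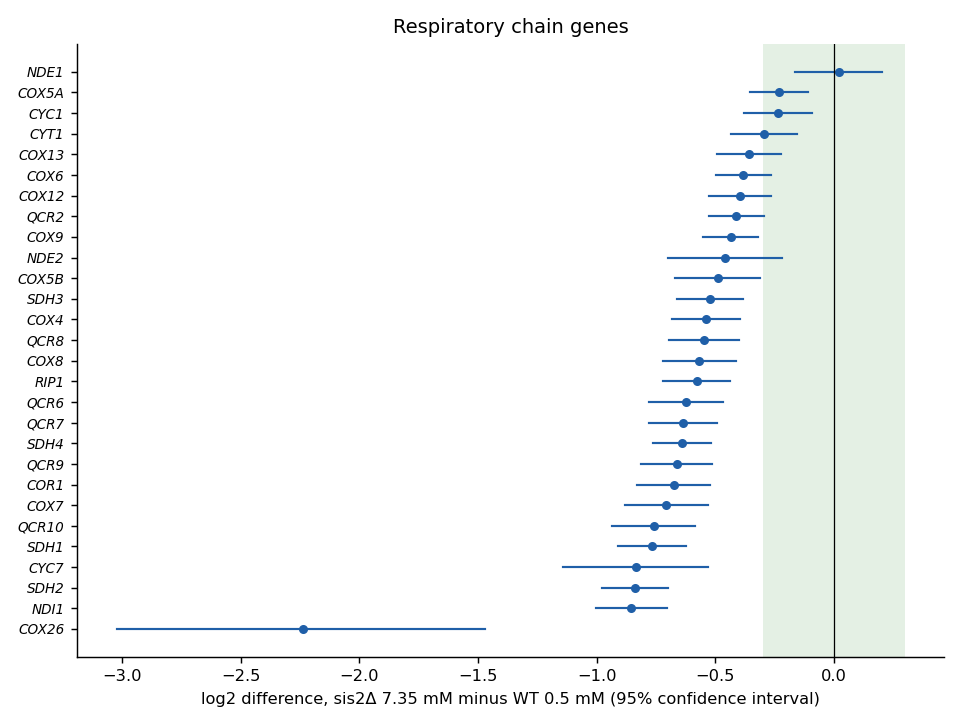
Log2 difference of 28 respiratory chain genes, *sis2*Δ 7.35 mM minus WT 0.5 mM KCl, with 95% confidence intervals. The band marks ±0.3. *NDE1* is at 0.02 and the other genes lie below 0.

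All 17 ATP synthase genes were lower in *sis2*Δ 7.35 mM, with a median of -0.44. The largest differences were in regulators of the enzyme, *STF2* (-1.36) and *STF1* (-1.07), and *ATP1*, the alpha subunit of its catalytic part, differed by -0.32. *HAP4*, the activator subunit of the complex that controls respiratory genes, differed by -0.46. Of 17 genes of the TCA cycle and pyruvate dehydrogenase, 9 were lower, none was higher and 8 were within the margin. Of the 8, 1 was also lower. With 1 library left out 7 to 9 were lower. With the 6 libraries alone and the replicate number as a block, 10 were lower and 2 were higher. Over all genes 22.1% were lower, 18.9% were higher and 47.1% were within the margin. *CIT1*, mitochondrial citrate synthase, differed by -1.14 and *MDH1*, mitochondrial malate dehydrogenase, by -0.76, while the median of the list was -0.15. *CIT2*, the peroxisomal citrate synthase, was at 122.9, 126.4 and 112.1 CPM against 536.4, 496.2 and 490.2 CPM, a difference of -2.08 with separate groups.

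Of 68 mitochondrial ribosome genes, 53 were within it, 6 were higher and 2 were lower, with a median of -0.0031. The higher count was 3 without WT 0.5 mM replicate 3 or without *sis2*Δ 7.35 mM replicate 3, and the lower count was 4 without WT 0.5 mM replicate 1. With the 6 libraries alone and the replicate number as a block, 13 were higher and 9 were lower. Of 32 genes of mitochondrial protein import, 24 were within the margin, 5 were higher and 1 was lower. The higher count was 3 without WT 0.5 mM replicate 3, and with the block in the 6 libraries 11 were higher and 3 were lower. Of 24 mitochondrial carriers and porins, 13 were lower, 6 were within the margin and 2 were higher, with a median of -0.19. The higher count was 1 without WT 0.5 mM replicate 1 or replicate 3 and 0 without *sis2*Δ 7.35 mM replicate 2. With the block in the 6 libraries 19 were lower and 10 were within the margin, and under upper quartile scaling 17 were lower. *POR1*, the main porin of the outer membrane, was at 744.6, 793.4 and 804.8 CPM against 1571, 1719 and 1480 CPM, a difference of -1.03, and the phosphate carrier *PIC2* differed by -1.18. Over all genes 47.1% were within the margin, and the lists were not tested as sets.

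Genes of sugar uptake and reserve carbohydrates were mostly lower in *sis2*Δ 7.35 mM. *HXT4* (YHR092C, chrVIII:287081-288811), a hexose transporter induced by low glucose, was at 22.4, 22.01 and 31.9 CPM against 218.4, 286.0 and 292.1 CPM. *TDH1*, an isozyme of glyceraldehyde-3-phosphate dehydrogenase, was at 71.2, 81.8 and 86.0 CPM against 654.7, 722.4 and 849.6 CPM. *HXK1*, a hexokinase, was at 107.1, 89.7 and 111.2 CPM against 514.5, 517.5 and 617.9 CPM. The log2 differences were -3.38 for *HXT4*, -3.22 for *TDH1* and -2.42 for *HXK1*. The ranking that named these genes took only genes whose groups did not overlap, as in 51.9% of all genes. *HXT* and *TDH* genes have close relatives, and their counts depend on how shared reads were divided. *HXT2*, a high-affinity hexose transporter, went the other way and was higher by 0.85. Of 17 hexose transport genes 9 were lower and 1 was higher, and of 22 glycolysis and fermentation genes 13 were lower and none was higher. Over all genes 22.1% were lower and 18.9% were higher.

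Of 17 trehalose and glycogen genes, 13 were lower and none was higher, with a median of -0.48, led by glycogen phosphorylase *GPH1* (-2.15) and phosphoglucomutase *PGM2* (-1.68). The stress response element CCCCT, searched in the same way, was in 15 of 17 of these upstream windows (88.2%) and in 39.7% of all windows. The *GPH1* window holds 2 of the 3 copies in the 600 bases searched. They are in capitals and read AGGGG on the strand of the gene.
GPH1 (chrXVI:860907-861026, plus strand): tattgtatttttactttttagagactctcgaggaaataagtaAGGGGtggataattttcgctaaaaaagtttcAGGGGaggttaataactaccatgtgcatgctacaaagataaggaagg
Among 27 chaperones and general stress genes, 15 were lower and 6 were higher, beside 22.1% and 18.9% of all genes. *YRO2*, a plasma membrane protein, differed by -2.01 and *DDR2*, a multistress gene, by -1.75. The cytosolic chaperones *SSA2* (0.71), an Hsp70, and *HSC82* (0.67), an Hsp90, were higher in *sis2*Δ 7.35 mM. Both have near-identical relatives and their counts are uncertain in the same way.

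The amino acid biosynthesis lists differed from each other in their counts. Of 10 arginine genes, 9 were lower in *sis2*Δ 7.35 mM, with a median of -0.92, and *CPA1* (0.20) passed neither test. *ARG1* (YOL058W, chrXV:219211-220473), argininosuccinate synthetase, was at 156.3, 155.1 and 158.0 CPM against 560.4, 480.8 and 539.1 CPM, a difference of -1.75 ± 0.079 (SE, adjusted p = 2.57e-13 in edgeR). WT 7.35 mM lay between them at 192.4 to 224.6 CPM. The groups were on opposite sides of it, at -0.43 for *sis2*Δ and 1.32 for low potassium. *ARG1* was selected by this position, so its differences from WT 7.35 mM are a description. *HIS4*, of histidine synthesis, was placed alike, at 147.4, 151.3 and 156.0 CPM against 515.5, 407.7 and 423.6 CPM. Its values against WT 7.35 mM were -0.42 and 1.15. The letters TGACTC, the core recognized by the amino acid regulator Gcn4, were in all 10 arginine windows and in 15.4% of all windows. They were also in 8 of 10 windows of the glycine cleavage and one-carbon list, in which 8 genes were higher. Of genes called lower 19.3% had these letters, and of genes called higher 15.1%. The letters are shown in capitals for both genes (GAGTCA where they lie on the other strand).
ARG1 (chrXV:218844-218963, plus strand): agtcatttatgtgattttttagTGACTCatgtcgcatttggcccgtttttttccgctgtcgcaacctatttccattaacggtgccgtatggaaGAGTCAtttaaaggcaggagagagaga
HIS4 (chrIII:68503-68622, minus strand): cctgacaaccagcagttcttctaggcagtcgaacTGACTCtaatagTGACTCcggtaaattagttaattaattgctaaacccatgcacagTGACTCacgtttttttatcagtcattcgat
Of the other lists, 5 of 7 histidine genes, 5 of 8 lysine genes and 6 of 11 genes of branched-chain amino acids were lower. In each of these lists 1 gene was higher. Of 13 aromatic amino acid genes, 5 were lower, 2 were higher and 7 were within the margin, 1 of them also called. Of 11 genes of glutamate, glutamine, aspartate and proline, 3 were lower, 1 was higher and 7 were within it. Over all genes 22.1% were lower, 18.9% were higher and 47.1% were within the margin. Of 8 serine and glycine genes, 3 were lower and 3 were higher.

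The iron genes *TIS11*, an mRNA-binding regulator of iron use, and *FIT3*, a cell wall mannoprotein, also lay on opposite sides of WT 7.35 mM. They were selected by this position, so it is a description. The same selection took the structural RNA genes *snR10* and *snR31*, and *YGL088W*, *YPR078C* and *YAR030C*, which have no standard name. *TIS11* was at 11.9, 11.3 and 12.2 CPM against 30.8, 29.5 and 25.3 CPM, with 17.8 to 19.4 CPM in WT 7.35 mM. *FIT3* differed by -1.15 between the groups compared. Of 24 iron regulon genes, 14 were lower and 1 was higher, beside 22.1% and 18.9% of all genes. The higher count was 3 without *sis2*Δ 0.5 mM replicate 3.

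Of 20 genes of sulfate assimilation and sulfur amino acids, 16 were lower and 3 were higher in *sis2*Δ 7.35 mM, with a median of -0.60. The higher count was 1 without WT 0.5 mM replicate 2, WT 0.5 mM replicate 3 or *sis2*Δ 7.35 mM replicate 1. Over all genes 22.1% were lower and 18.9% were higher. *MET3*, ATP sulfurylase, differed by -1.77, *STR3*, cystathionine beta-lyase, by -1.84, and *SUL2*, a sulfate permease, by -1.36. CACGTG was in 16 of these 20 windows (80%), beside 7.22% of all windows.

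Among named genes with at least 50 counts on average, those higher in *sis2*Δ 7.35 mM were led by *CHA1* (YCL064C, chrIII:15798-16880), the serine and threonine deaminase. It was at 54.7, 54.1 and 72.2 CPM against 9.67, 10.6 and 10.7 CPM, a difference of 2.55 ± 0.10 (SE, n = 3 per group, adjusted p = 3.09e-14 in edgeR). WT 7.35 mM was higher than either, at 212.7 to 247.4 CPM, so both states lay below the reference, by -1.96 in *sis2*Δ and -4.51 in low potassium. *PDR5* (YOR153W, chrXV:619840-624375), a multidrug exporter, had the same order, at 525.0, 483.4 and 495.2 CPM against 220.9, 168.7 and 200.6 CPM, with 920.9 to 940.7 CPM in WT 7.35 mM. *SNQ2*, another multidrug exporter, was higher by 0.79 and *AQR1*, an exporter of amino acids and drugs, by 0.95. *FUR1*, of pyrimidine salvage, was higher by 0.94.

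The inosine monophosphate dehydrogenase genes differed in direction. *IMD4* was higher by 0.89, at 710.6, 681.8 and 661.8 CPM against 402.0, 371.5 and 338.5 CPM. *IMD2* differed by -1.12, at 29.0, 25.8 and 25.7 CPM against 65.6, 55.0 and 54.7 CPM, and WT 7.35 mM stood above both groups at 193.2 to 196.1 CPM. These genes are similar in sequence, and their counts are uncertain to that extent.

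Smaller differences ran through the genes of ribosome assembly and one-carbon metabolism. Of 44 ribosome biogenesis genes, 40 were higher in *sis2*Δ 7.35 mM and none was lower, with a median of 0.29. *NUG1*, a GTPase of large ribosomal subunit assembly, was at 189.3, 185.4 and 183.1 CPM against 140.2, 132.5 and 121.9 CPM, a difference of 0.50 ± 0.060 (SE, adjusted p = 1.13e-06 in edgeR). The PAC element GATGAG was in 42 of the 44 windows (95.5%) and in 32.0% of all windows. In the *NUG1* window a pair of copies overlap, shown in capitals.
NUG1 (chrV:162565-162684, plus strand): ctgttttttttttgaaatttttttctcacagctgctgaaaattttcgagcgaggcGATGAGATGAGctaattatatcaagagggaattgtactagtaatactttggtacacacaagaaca
Of 10 genes of glycine cleavage and one-carbon metabolism, 8 were higher and 1 was lower, with a median of 0.40, led by glycine decarboxylase *GCV2* (0.68). Of 33 proteasome genes, 26 were higher, none was lower and 10 were within the margin, 3 of them also called. The count of proteasome genes within the margin was 6 without WT 0.5 mM replicate 3 and 5 without *sis2*Δ 7.35 mM replicate 1. The median of the list was 0.26, and *RPN4*, the activator of these genes, was within the margin at 0.05. Of 137 cytosolic ribosomal protein genes, 77 were within the margin, 32 were higher and 2 were lower, beside 47.1%, 18.9% and 22.1% of all genes. The higher count depended on single libraries, at 10 without WT 0.5 mM replicate 1, 19 without WT 0.5 mM replicate 3, 52 without *sis2*Δ 0.5 mM replicate 2, 55 without *sis2*Δ 7.35 mM replicate 1, 6 without *sis2*Δ 7.35 mM replicate 2 and 13 without *sis2*Δ 7.35 mM replicate 3. The count within the margin was 49 without WT 0.5 mM replicate 2, 48 without WT 0.5 mM replicate 3 and 43 without *sis2*Δ 7.35 mM replicate 1. With the block in the 6 libraries, 91 were higher and 121 were within the margin. The method mattered as well, with 10 higher under upper quartile scaling and 53 by DESeq2. Many of these genes are pairs of near-identical copies.

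**Figure D4:**
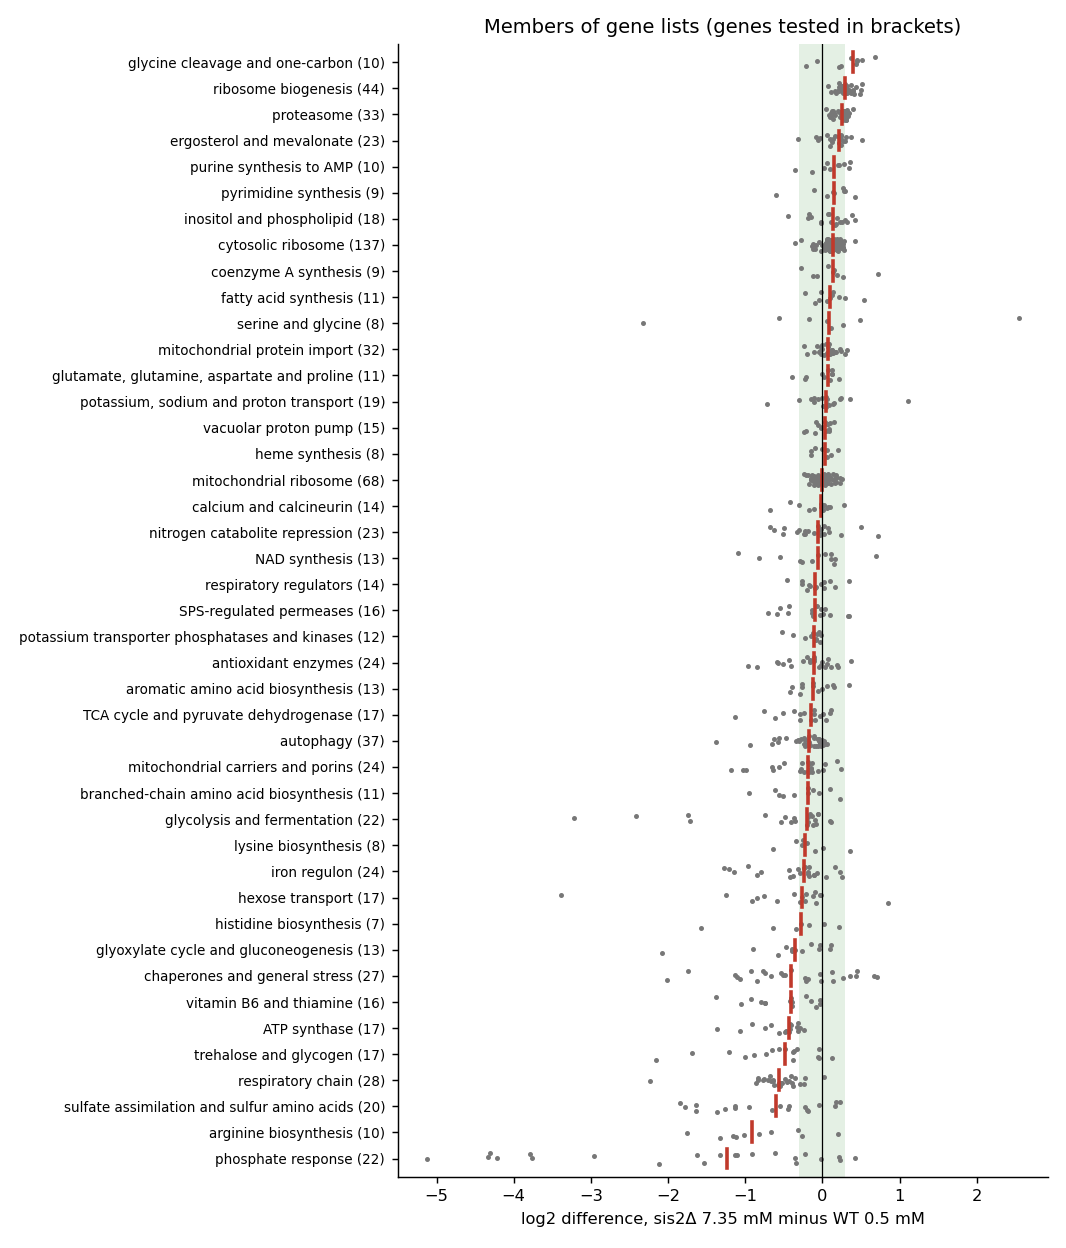
Log2 difference of the members of gene lists, *sis2*Δ 7.35 mM minus WT 0.5 mM KCl, in order of the list medians. Points are genes, placed with a random vertical offset, red bars are medians and the band marks ±0.3. *SIS2* lies off the axis. Of the lists drawn, the phosphate list has the lowest median (-1.23) and the one-carbon list the highest (0.40).

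Of 19 genes of potassium, sodium and proton transport, 13 were within the margin, beside 47.1% of all genes, 5 were higher and 2 were lower, 1 of them both higher and within the margin. The higher count was 2 without WT 0.5 mM replicate 3, 3 without *sis2*Δ 7.35 mM replicate 1 and 2 without *sis2*Δ 7.35 mM replicate 2, and the count within the margin was 8 without *sis2*Δ 7.35 mM replicate 2 or replicate 3, which is not above the share of all genes. With the block in the 6 libraries 4 were lower. *TRK1* was at 94.7, 102.6 and 105.2 CPM against 100.9, 97.8 and 94.1 CPM, with a log2 difference of 0.05 and a 95% confidence interval from -0.08 to 0.18. *TRK2* was at 45.4, 43.4 and 42.9 CPM against 46.7, 39.3 and 40.4 CPM, and both groups were below the 53.6 to 60.3 CPM of WT 7.35 mM. The groups overlapped in *TRK1* and *TRK2*. The multidrug transporter *QDR2*, which also takes part in potassium uptake, was higher by 0.36, at 114.5, 109.7 and 106.5 CPM against 84.5, 83.8 and 89.6 CPM. The sodium pump gene *ENA2* was higher by 1.11 ± 0.28 (SE, adjusted p = 0.00266 in edgeR) at low levels, 0.783, 0.776 and 1.13 CPM against 0.583, 0.346 and 0.311 CPM, and the *ENA* genes are near-identical neighbors whose counts depend on how shared reads were divided. *PMP1*, a small regulator of the proton pump, differed by -0.71 and *PMA1*, the pump itself, by -0.31, a call lost without *sis2*Δ 7.35 mM replicate 3.

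Of 12 phosphatases, kinases and regulators that act on potassium transport, 8 were within the margin and 4 were lower, including the deleted *SIS2*. The shares of all genes were 47.1% within the margin and 22.1% lower. *PPZ1* was at 76.6, 80.0 and 76.9 CPM against 82.4, 78.7 and 76.0 CPM, with a 95% confidence interval of the difference from -0.15 to 0.10. *PPZ2* (-0.05), *HAL5* (-0.07) and *SAT4* (-0.03) were also within the margin. *VHS3*, a relative of *SIS2* that also inhibits Ppz1, was at 26.4, 27.7 and 29.0 CPM against 38.7, 40.7 and 39.8 CPM, a difference of -0.52 ± 0.056 (SE, adjusted p = 2.21e-07 in edgeR). In WT 7.35 mM *VHS3* was at 25.9 to 28.1 CPM. The kinase genes *PTK2* (-0.38), which activates Pma1, and *NPR1* (-0.23), which stabilizes nutrient permeases, were lower, the latter call being lost without *sis2*Δ 7.35 mM replicate 2 or replicate 3.

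Some genes matched at a level away from that of WT in regular potassium. These genes were selected by their position relative to WT 7.35 mM, so their difference from it is a description. *PHD1*, a transcription factor of filamentous growth, was at 100.9, 73.7 and 78.1 CPM in *sis2*Δ 7.35 mM and 92.3, 80.2 and 81.2 CPM in WT 0.5 mM, against 43.2 to 49.6 CPM in WT 7.35 mM. *ADR1*, an activator of genes for nonfermentable carbon use, was at 71.0, 57.0 and 55.1 CPM and 65.2, 61.3 and 62.6 CPM, against 31.9 to 35.1 CPM. Both genes stood above the reference in each state, and their place within the margin was lost without *sis2*Δ 7.35 mM replicate 1. *TIR1* and *TIR3*, cell wall mannoproteins, stood below it. *TIR1* was at 13.8, 20.1 and 16.6 CPM and 17.1, 15.5 and 16.7 CPM, against 32.1 to 41.9 CPM. *ENA1*, the sodium pump, was at 22.7, 22.1 and 20.7 CPM and 24.8, 23.5 and 22.4 CPM, against 28.5 to 35.6 CPM, with the same uncertainty of its counts. The zinc transporter *ZRT1* was at 15.0 to 17.7 and 14.5 to 17.1 CPM, against 22.7 to 26.7 CPM. *TIR1*, *TIR3*, *ENA1* and *ZRT1* each failed the margin test when some single libraries of the groups compared were left out, while *KEL2*, a regulator of mitotic exit, passed it in each of 20 alternatives.

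**Figure D5:**
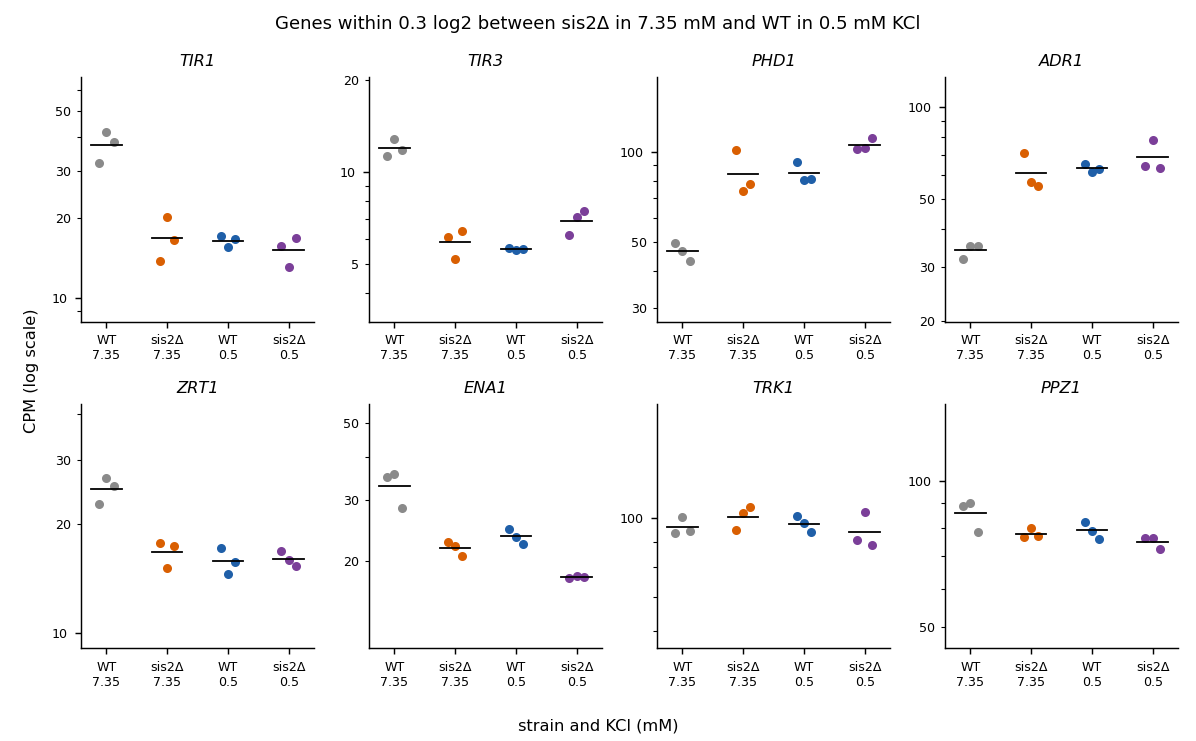
CPM on a log scale in each library of the 4 groups for 8 genes within the margin of 0.3 between *sis2*Δ 7.35 mM and WT 0.5 mM KCl. Points are libraries and bars are group means. The middle groups overlap in each gene. *PHD1* and *ADR1* stand above WT 7.35 mM in both, and *TIR1*, *TIR3*, *ZRT1* and *ENA1* below it.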

How the data were processed

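RNA was poly(A)-selected and sequenced from directional libraries. Per the labels, the submitters' processing notes name bcl2fastq, cutadapt 2.6, STAR 2.7.6a, featureCounts, Subread 1.6.2 and build R64, and the strand setting of the counting is not given in the sources used here. The authors deposited 1 table of expected counts, without normalization, for 7112 features in 12 libraries, of which 40.1% of values were whole. Counts were rounded, filtered with filterByExpr and normalized by TMM in edgeR 4.0.16 (R 4.3.3), and 1 quasi-likelihood fit with 4 groups gave each contrast. Closeness was tested by a pair of one-sided Wald tests from the same fit, with Benjamini-Hochberg adjustment over 6691 genes and a threshold of 0.05. Totals were 35451323 to 46543107 counts per library, and chi-square per degree of freedom between replicates was 8.17 to 46.8, so the spread between replicates exceeded counting error.

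In a test on simulated data for this contrast (6676 genes), 97 of 100 genes changed by 0.5 log2 and 100 of 100 changed by 1 were called. There were 9 false calls among 6476 unchanged genes. The changed genes had a mean over 1 CPM and went up and down equally often, and no replicate effect was simulated. Sensitivity at lower counts and under mostly 1-sided changes was not tested. The labels give a batch equal to the replicate number, and deviations of same-numbered libraries of the groups compared correlated at 0.159 to 0.279. The rule for named genes took the 12 highest and 12 lowest with a standard name, at least 50 counts on average and groups that did not overlap, the 3 highest and 3 lowest other features, genes within the margin on 1 side of WT 7.35 mM, genes on opposite sides of it, the extreme members of each list and genes the study names, and values are printed for a part. *ATP1*, *PHO4*, *PHO8*, *PHO81*, *PHO91*, *PTK2*, *SDH2*, *SUL2*, *VTC1*, *VTC3* and *VTC4*, outside the ranked parts of the rule, were chosen for their known roles after their values were seen. The members and lists were chosen with earlier results of these data known. Alternatives were DESeq2 1.42.0, other scalings, filters, thresholds and margins, a replicate block, the 6 libraries alone and leaving out each library. The block within the 6 libraries was added after seeing the data. Of the features, 6034 matched the RefSeq R64 annotation. Tables and plots used Python 3.11.15, NumPy 2.4.6, pandas 2.3.3, statsmodels 0.14.6 and matplotlib 3.10.9.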

Additional observations from a re-analysis of the deposited data

How the results depend on the processing

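The count of genes called stayed within 1.5 times of 2746 in every alternative run without a minimum difference, among them 2743 by DESeq2, 2873 with the replicate block, 2849 with the 6 libraries alone, 3647 with those and the block, and 2275 to 2954 with 1 library left out. A minimum log2 difference of 0.5 left 626 genes (87 higher, 539 lower) and a minimum of 1 left 182. Upper quartile scaling moved the median of all genes to -0.03, and the share of calls that were higher was 37.5% under it against 46.0%. The count within the margin was 0 at a margin of 0.2, 5312 at 0.5, 3272 with the replicate block, and 2592 to 3283 with 1 library left out. Over 267 named genes and 21 settings, no called gene reversed direction, 5418 values kept their side of the threshold, of which 51, called in neither fit, changed sign, 106 lost the call and 74 gained it. Of the medians of 56 lists under these settings, 1134 moved by less than the spread between replicates and 42 by more. At this precision 974 genes, with a median SE of 0.118, could be placed neither as different nor as matched.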
